A study of Mus musculus with 57 samples.

Results

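The T cell receptor complex and its coreceptors were followed through 10 genes: Cd3d, Cd3e, Cd3g, Cd247, Lck, Zap70, Cd4, Cd8a, Cd8b1 and Cd2. Every probe set that the annotation assigned to 1 of these genes alone was taken. Such an entry existed for 9 of the 10 genes, through 19 probe sets, of which 17 passed a filter on dim signals. Lck was not analysed here. The 9 genes stand among 18165 genes with a single-gene probe set, 15310 of which were tested. The data were 57 arrays in 14 groups. CA10 mice carry vav-CALM-AF10 and NHD13 mice carry vav-NUP98-HOXD13, fusion genes of acute myeloid leukemia that the vav promoter drives in blood-forming cells. Thymus came from wild-type mice (7 arrays), CA10 mice (4) and NHD13 mice (3). Spleen came from wild-type mice (2), CA10 mice without signs of leukemia (5, called healthy here), CA10 mice with leukemia (6) and NHD13 mice with leukemia (6). Whole bone marrow came from wild-type (6), CA10 (3) and NHD13 mice (3) and from wild-type mice labelled C57B6 (3). Lineage-negative marrow, from which mature blood cells had been removed, came from wild-type, CA10 and NHD13 mice (3 each). All transgenic thymus and marrow was from clinically healthy mice, and the labels name no treatment. Wild-type tissue was from littermates of like age where possible; ages are not in the labels, nor is the strain of the groups other than C57B6. Whether every array is its own mouse is not stated, and p-values below then reflect only how far arrays of a group scatter, which may be technical.

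The T cell receptor recognises peptide through its alpha and beta chains but signals through the CD3 gamma, delta and epsilon chains and the zeta chain. Lck phosphorylates these chains and the kinase Zap70 binds them, while Cd4 or Cd8 brings Lck to the receptor by binding the same MHC molecule. In the thymus, progenitors that lack both coreceptors turn on the CD3 genes first. They then become thymocytes with both Cd4 and Cd8, rearrange the alpha chain with Rag1 and Rag2, and mature into cells with 1 coreceptor that leave for spleen and lymph node. The adhesion receptor Cd2 strengthens contact with the antigen-presenting cell.

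Promoters are shown for the CD3 genes and Cd8a because these genes differed in how far they departed from wild type in NHD13 thymus. Each run is the 250 bases before the transcription start that RefSeq gives on GRCm38.p6, printed 5′ to 3′ on the strand of the gene. Capitals mark the ETS-type motif AGGAAG on either strand and the E-box CANNTG, which reads alike on both strands; the letters of these motifs cannot overlap.
Cd3d, chr9:44981536-44981785, plus strand: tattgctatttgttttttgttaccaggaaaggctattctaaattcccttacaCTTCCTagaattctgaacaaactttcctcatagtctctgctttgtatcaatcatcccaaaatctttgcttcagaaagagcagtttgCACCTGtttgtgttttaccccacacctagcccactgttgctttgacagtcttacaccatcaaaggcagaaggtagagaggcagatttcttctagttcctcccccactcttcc
Cd3g, chr9:44980432-44980681, minus strand: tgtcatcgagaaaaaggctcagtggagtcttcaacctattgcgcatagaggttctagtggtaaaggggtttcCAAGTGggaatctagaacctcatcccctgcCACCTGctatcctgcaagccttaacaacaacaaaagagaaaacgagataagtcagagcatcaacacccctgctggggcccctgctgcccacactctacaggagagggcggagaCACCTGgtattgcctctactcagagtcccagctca
Cd3e, chr9:45009612-45009861, minus strand: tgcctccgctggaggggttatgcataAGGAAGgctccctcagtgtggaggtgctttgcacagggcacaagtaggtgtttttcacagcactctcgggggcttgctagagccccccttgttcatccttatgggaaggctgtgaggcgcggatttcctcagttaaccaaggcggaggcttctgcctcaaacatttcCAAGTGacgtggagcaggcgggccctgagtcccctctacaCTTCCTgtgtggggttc
Cd8a, chr6:71373177-71373426, plus strand: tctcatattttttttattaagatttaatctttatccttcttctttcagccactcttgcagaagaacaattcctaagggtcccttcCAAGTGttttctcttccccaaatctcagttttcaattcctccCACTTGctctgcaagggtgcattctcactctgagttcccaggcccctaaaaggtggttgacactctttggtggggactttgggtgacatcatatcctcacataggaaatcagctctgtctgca
The starts of Cd3d and Cd3g lay head to head, 1355 bases apart. The ETS-type letters occurred 1 time before Cd3d, 2 times before Cd3e and 0 times before Cd3g and Cd8a, and 29.5% of 32851 promoter windows of this length held them. The E-box letters occurred 1 time before Cd3d, 1 time before Cd3e, 3 times before Cd3g and 2 times before Cd8a, against 66.2% of all windows. These matches describe letters only. RefSeq promoters matched 7 of the 10 genes; Cd4, Cd8b1 and Cd2 are named only.

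Values are RMA signals on a log2 scale, so a difference of 1 is a doubling of signal. The 40th percentile over all single-gene probe sets and arrays was 5.3, and signals near or under it lie in the dim part of the range. A gene is given by whichever of its probe sets was brightest on average. For Zap70 that probe set lay between 7.72 and 8.57 in wild-type thymus and wild-type spleen alike, whereas its most variable probe set was brighter in thymus than in spleen, so values of both are given. Differences were tested with limma in 1 model per tissue, adjusted over all genes tested by Benjamini-Hochberg with a threshold of 0.05, and errors beside differences are standard errors.

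3 thymuses stood apart. In the library labelled wild-type thymus 2 the genes that define thymocytes with both coreceptors were low. Rag1 was 4.06 there, against 12.26 to 13.10 on the other 6 wild-type arrays, and Dntt was 5.63, against 11.87 to 12.79. The thymic epithelial protease Prss16 was 5.30, against 11.39 to 12.88. The summed signal of thymic epithelium genes was 9.67, within the range of the spleens (9.40 to 10.46), while B cell genes summed to 13.93, the highest value among the wild-type thymuses. In CA10 thymus 3, Rag1 was 11.49, the epithelium sum was 12.26 and the mitotic sum was 11.95, each the lowest of the 4 CA10 thymuses. Wild-type thymus 6 had the lowest B cell sum of its group, 11.82, and an epithelium sum of 13.37, under all of its group but array 2. Counts and differences of the members in thymus are given with and without these 3 arrays.

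Across the 14 groups 8 of the 9 members stood highest in thymus, and 7 of these had their highest mean in wild-type thymus. The brightest Zap70 probe set did not. Its means ran from 8.59 in NHD13 lineage-negative marrow to 7.88 in NHD13 thymus, with wild-type thymus next to lowest at 7.96, and each overlapped with its neighbour; the most variable Zap70 probe set had its highest mean in wild-type thymus. Cd3g, the gamma chain, read 11.64 ± 0.21 (SD, n = 3) in NHD13 thymus and 11.56 ± 0.94 (n = 7) in wild-type thymus, and these neighbours overlapped. Without wild-type thymuses 2 and 6 the wild-type mean was 12.03 ± 0.15 (n = 5), the higher of the pair. It was 9.10 ± 0.38 (n = 2) in wild-type spleen, 5.48 ± 0.38 (n = 6) in wild-type whole marrow and lowest in NHD13 lineage-negative marrow, at 3.98 ± 0.11 (n = 3). Cd3d, the delta chain, ran from 12.01 ± 0.87 in wild-type thymus to 6.24 ± 1.05 in NHD13 lineage-negative marrow. Array 3 of that marrow group had the highest 3' minus 5' difference of the Gapdh control probe sets, a sign of RNA quality, at 2.95. The mean of Cd3d in wild-type whole marrow, 9.71 ± 0.45, came next after that in wild-type spleen, 10.09 ± 0.40, and these neighbours overlapped. Cd3g and Cd3d thus ranked whole marrow differently. Over the 14 group means, which share the arrays' processing, Cd8a and Cd8b1 correlated at 0.99 and Cd3g and Cd247 at 0.98. The brightest Zap70 probe set correlated at -0.37 with Cd3d and -0.45 with Cd3e.

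**Figure D1:**
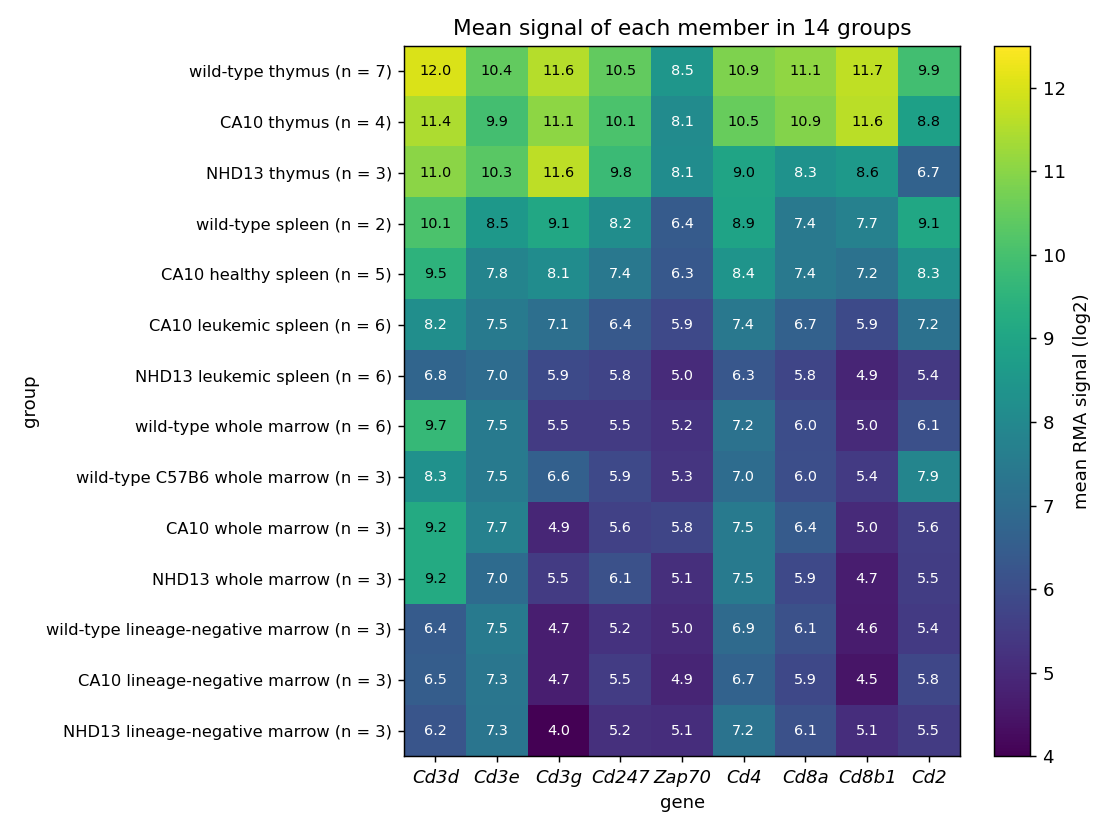
Mean RMA signal (log2, colour and number) of 9 genes in 14 groups; the number of arrays is beside each group, and Zap70 is shown by its most variable probe set. Values are to be read down a column, since signals of different genes are not on one scale; a thymus group stands highest in every column, and in whole marrow the means of Cd3d run from 8.29 to 9.71 and those of Cd3g from 4.91 to 6.62.

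In NHD13 thymus the adhesion receptor Cd2 was low, and the coreceptors were low beside most wild-type arrays, while the CD3 gamma and epsilon chains overlapped with wild type with and without the arrays that stood apart. Cd2 fell by 3.26 ± 0.48 on the log2 scale, 9.56-fold (limma adjusted p = 0.00549). It was the 1 member of 9 called; 0.764% of all genes tested were called, 0.366% as lower. Without the 3 thymuses, 6 of 9 fell (Cd2, Cd8b1, Cd8a, Cd4, Cd3d and Cd247), at a background of 10.7% called and 7.39% called lower. Without wild-type thymus 2 alone 4 of 9 were called, among 317 of the 15310 genes. In bulk tissue, fewer cells of a type and less RNA per cell cannot be told apart.

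Among the CD3 chains, Cd3g read 11.85, 11.43 and 11.65 in NHD13 thymus and, from lowest over median to highest, 9.54, 11.95 and 12.21 in wild-type thymus. The low end of the wild-type range was set by wild-type thymuses 2 and 6. The other 5 ran from 11.82 to 12.21, and 2 of the 3 NHD13 arrays lay under them. The difference was 0.08 ± 0.55 (limma adjusted p = 0.98), or -0.38 ± 0.23 (0.337) without the 3 thymuses. Cd3e, the epsilon chain, read 10.56, 10.45 and 9.92 against 9.11, 10.81 and 11.05. Without wild-type thymuses 2 and 6 the wild-type range was 10.48 to 11.05, and again 2 of the 3 NHD13 arrays lay under it. The difference was -0.13 ± 0.40 (0.942), or -0.54 ± 0.23 (0.168) without the 3 thymuses. Cd3d read 11.73, 10.78 and 10.52, against 10.13, 12.36 and 12.63. All 3 arrays were under the 5 wild-type thymuses that did not stand apart, and wild-type thymus 2 was the lowest of both groups. The difference was -1.0 ± 0.52 (0.501), and without the 3 thymuses Cd3d fell by 1.41 ± 0.27 (0.00918). A p above the threshold does not show that Cd3g and Cd3e were alike in these groups.

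Cd247, which encodes the zeta chain, read 9.91, 9.35 and 10.08 in NHD13 thymus against 7.83, 11.00 and 11.13 in wild type. Its difference was -0.68 ± 0.66 (limma adjusted p = 0.775). Without the 3 thymuses it fell by 1.25 ± 0.21 (0.00453) and the groups did not overlap. The other tested Cd247 probe set was not called there, at -0.34 ± 0.32 in the fit of all probe sets (0.587). Zap70, the kinase that docks on the phosphorylated chains, read 8.26, 7.84 and 8.29 at its most variable probe set against 6.66, 8.76 and 9.03. In the fit of all probe sets its difference was -0.33 ± 0.48 (0.86), and -0.72 ± 0.20 (0.0522) without the 3 thymuses. The brightest Zap70 probe set differed by -0.08 ± 0.19 (0.924) and, without the 3, by 0.05 ± 0.12 (0.848). The remaining Zap70 probe set differed by -0.50 ± 0.23 (0.424) and fell by 0.66 ± 0.15 (0.0259) without the 3.

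The coreceptors differed more and varied more between the NHD13 arrays. Cd8b1, the beta chain of Cd8, read 10.63, 8.78 and 6.25 against 8.11, 12.37 and 12.60. NHD13 array 3 was the lowest of all thymuses, and array 1 was the highest of its group. The difference was -3.12 ± 0.97 (limma adjusted p = 0.18); without the 3 thymuses Cd8b1 fell by 3.87 ± 0.73, 14.7-fold (0.00808). Cd8a, the alpha chain, read 9.94, 8.36 and 6.67 against 7.54, 11.83 and 12.01, with the NHD13 arrays in the same order. Its difference was -2.78 ± 0.91 (0.204), and it fell by 3.56 ± 0.55, 11.8-fold (0.00294), without the 3. Of the 5 Cd8a probe sets, 0 were called over all arrays, at 0.589% of probe sets, and all 5 fell without the 3 thymuses, with differences from -3.56 to -1.19, at 8.31%.

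Cd4 read 9.29, 8.10 and 9.49 in NHD13 thymus and 8.74, 11.21 and 11.49 in wild type. Here NHD13 array 3 was the highest of its group, unlike for Cd8a and Cd8b1. The difference was -1.91 ± 0.54 (limma adjusted p = 0.136), and Cd4 fell by 2.35 ± 0.27, 5.11-fold (0.000697), without the 3. Its second probe set was not called either way (adjusted p = 0.632 and 0.227). Cd2 read 7.01, 7.41 and 5.63 against 8.78, 10.18 and 10.50, so that every NHD13 array lay under every wild-type array, wild-type thymus 2 included; 2.68% of all genes separated in that direction. Without the 3 thymuses Cd2 fell by 3.58 ± 0.39, 11.9-fold (0.000537), and the 6 members that fell were those whose groups did not overlap, at 12.9% of all genes. NHD13 thymus 3, lowest for Cd8a, Cd8b1 and Cd2, had the highest mitotic sum of all thymuses, 15.07. Leaving it out as well gave 6 of 9 members called, at 14.8% of genes.

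Coreceptor and Cd3g signals were also set against each other within single arrays; such a value is a difference between probe sets and only its change between arrays can be read. Cd8b1 minus Cd3g was -1.22, -2.65 and -5.39 in the NHD13 thymuses, and at its lowest -1.43, median 0.28 and highest 0.65 in wild type. The lowest wild-type value, that of thymus 2, lay inside the NHD13 range. Cd8a minus Cd3g was -1.92, -3.07 and -4.97 in NHD13 and from -2.01 to 0.19 in wild type, and these ranges overlapped too. Cd4 minus Cd3g was -2.56, -3.33 and -2.15 in NHD13 and from -0.93 to -0.44 in all 7 wild-type thymuses, with no overlap. It ran from -0.99 to -0.19 in CA10 thymus. How many other gene pairs separate in this way is not given here.

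**Figure D2:**
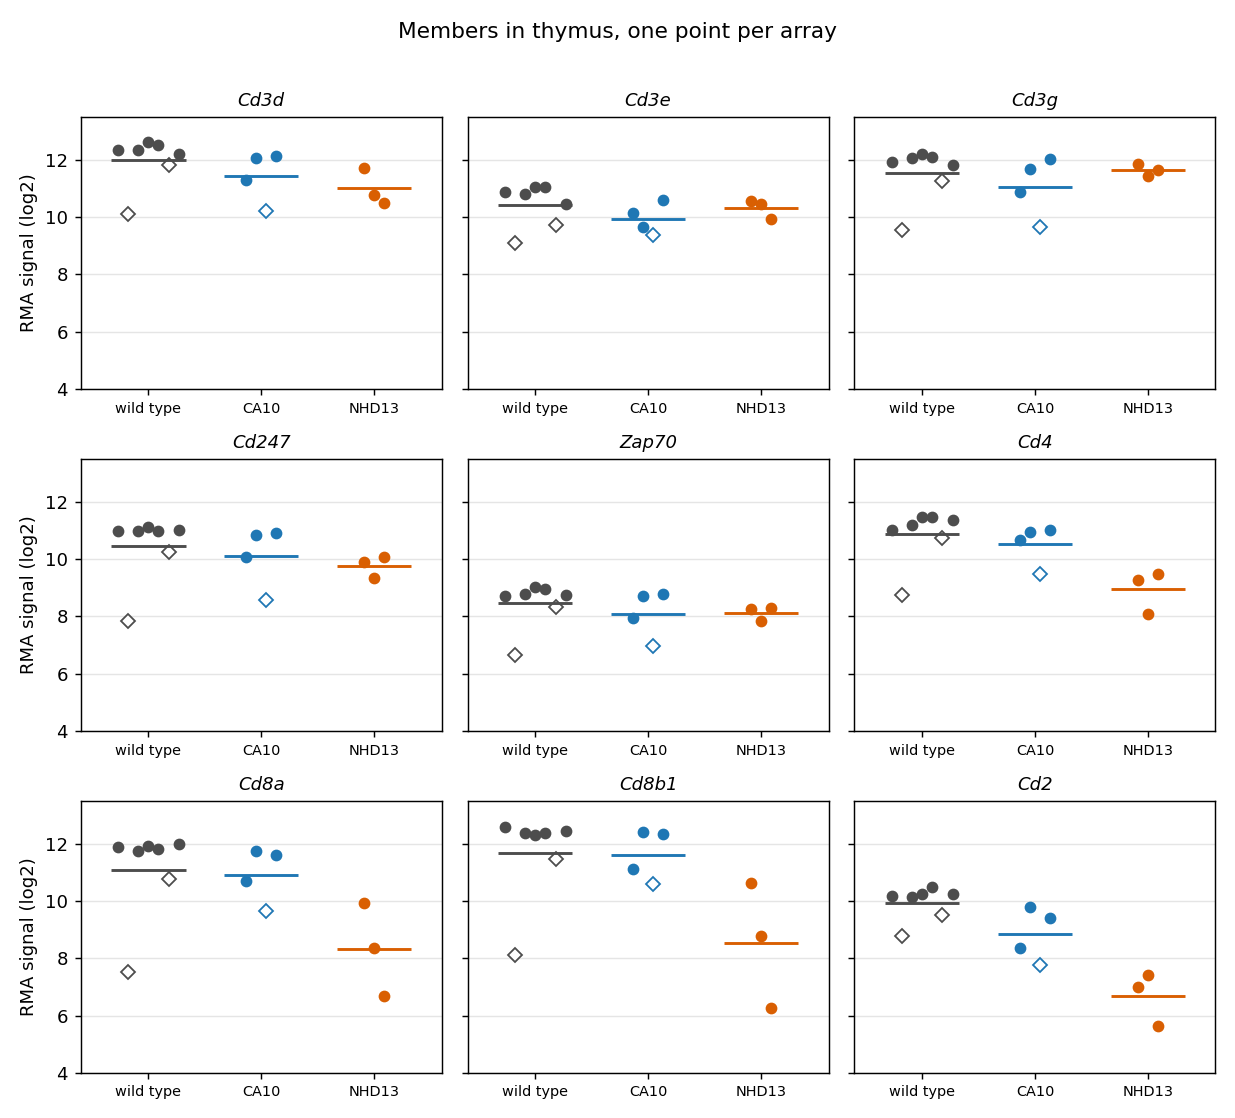
RMA signal (log2) of 9 genes in wild-type (n = 7), CA10 (n = 4) and NHD13 thymus (n = 3); each point is 1 array, lines are group means, open diamonds are wild-type thymuses 2 and 6 and CA10 thymus 3, and Zap70 is shown by its most variable probe set. Cd3g in NHD13 thymus sits at 11.43 to 11.85, inside the range of all wild-type arrays but with 2 of 3 arrays under the 11.82 to 12.21 of the wild-type arrays drawn as filled points, while Cd2 sits at 5.63 to 7.41, under all wild-type arrays.

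Other genes of the pathway in NHD13 thymus are given from lists on T cell biology. Some genes stand in more than 1 list, so the counts here and below overlap. Cd6, Cd28 and Tnfrsf4, for example, stand among both the costimulation and adhesion genes and the mature T cell genes. Over all arrays, 0 of 28 T cell receptor signalling genes were lower, and 1 of 16 costimulation and adhesion genes, 3 of 17 genes of thymocytes with both coreceptors and 6 of 21 mature T cell genes fell, while 0 genes of these 4 lists rose. Cd69, a marker of receptor engagement, fell by 3.22 ± 0.60 (limma adjusted p = 0.025), the transcriptional repressor Bcl6 fell by 2.18 ± 0.24 (0.000547) and Plxnd1, a guidance receptor of thymocytes, fell by 2.05 ± 0.40 (0.0316). Ccr7, the chemokine receptor that takes maturing thymocytes to the medulla, fell by 2.66 ± 0.43 (0.0104), Gimap6 fell by 2.93 ± 0.39 (0.00229) and the costimulatory receptor Tnfrsf4 fell by 1.24 ± 0.19 (0.00711). Hoxa9, a homeobox gene of early progenitors, rose by 5.03 ± 1.05 (0.0403) and was 1 of 15 early progenitor genes to do so. The median difference was -1.18 over the mature list, -0.33 over the signalling list, -1.0 over the 9 members and -0.00 over all genes.

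Without the 3 thymuses these counts were 14 of 28 signalling genes, 12 of 16 costimulation and adhesion genes, 10 of 17 genes of thymocytes with both coreceptors and 13 of 21 mature genes lower, with 0 higher. Ptprc, the CD45 phosphatase that primes Lck, fell by 1.11 ± 0.10 (limma adjusted p = 0.000344), and the Tec kinase Txk fell by 2.99 ± 0.40 (0.0014). Rasgrp1, which couples the receptor to Ras, fell by 1.92 ± 0.26 (0.00151). The costimulatory receptor Cd28 fell by 2.73 ± 0.36 (0.00137) and Cd6 fell by 1.65 ± 0.12 (9.71e-05). The recombinase gene Rag2 fell by 3.27 ± 0.36 (0.000568) and Rag1 fell by 1.32 ± 0.29 (0.0157). They were the 2 of 15 genes listed for the late stage without coreceptors that fell, and the median difference of that list was 0.40. Thymocytes with both coreceptors also use Rag1 and Rag2, and both genes count in their list too. Of 15 early progenitor genes 2 rose and 1 fell. Kit, a receptor of early progenitors, rose by 1.97 ± 0.35 (0.00609) and Hoxa9 rose by 5.04 ± 0.87 (0.00515). Flt3, another receptor of that list, fell by 0.74 ± 0.15 (0.0113). 8 of 16 T lineage transcription factors fell, where Bcl11b fell by 1.37 ± 0.16 (0.000673) and Satb1 fell by 1.79 ± 0.21 (0.0007).

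B cell genes were lower too. 2 of 16 B cell genes fell in NHD13 thymus over all arrays, where Ighm fell by 2.28 ± 0.34 (limma adjusted p = 0.00549) and Ms4a1 fell by 3.41 ± 0.68 (0.0319), and 11 of 16 without the 3 thymuses. The B cell sum ran from 10.53 to 11.63 in NHD13 thymus and from 11.82 to 13.93 in wild type, or 12.78 to 13.33 without thymuses 2 and 6, with Ms4a1 at 4.03 to 4.89 in NHD13 thymus. The thymic epithelium sum ran from 13.48 to 14.95 in NHD13 and, leaving out wild-type thymus 2, from 13.37 to 14.40 in wild type (13.93 to 14.40 without thymus 6 too). The part of other cell types in the fall of the members was not tested.

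In CA10 thymus 0 of 9 members were called against wild type. The adjusted p-values lay between 0.97 and 0.995, at a background of 0% of genes called, and 1 member, Cd2, had an unadjusted p under 0.05. Cd2 read 8.38, 9.80, 7.76 and 9.41 in CA10 thymus, all under the wild-type median of 10.18, and differed by -1.10 ± 0.44 (limma adjusted p = 0.97). Cd8b1 read 11.14, 12.42, 10.61 and 12.35, on both sides of the wild-type median, and its difference was -0.05, with an interval at 95% confidence from -1.93 to 1.84. For Cd4 the interval ran from -1.39 to 0.72 and for Cd3g from -1.58 to 0.57. CA10 thymus 3 was the lowest of its group in Cd3d, Cd3e, Cd3g, Cd247, Cd4, Cd8a, Cd8b1 and Cd2. Without the 3 thymuses the count was 0 of 9, at 0.0392% of genes called, with Cd2 at -1.06 ± 0.39 (0.445). The lowest adjusted p of the members was 0.436 by limma, for Cd3e at -0.72 ± 0.23. The median difference of the members was -0.50 in that setting, against -0.05 over all genes. Cd2, Cd3d, Cd8a and Cd247 did not overlap with wild type there, and the share of all genes that did so is not given here. Cd8b1 stood at -0.46 ± 0.73 (0.82) there, Cd4 at -0.43 ± 0.27 (0.564) and Cd3g at -0.50 ± 0.23 (0.476). Among the lists, 5 of 16 myeloid granule genes rose without the 3 thymuses and 0 of 16 with them. Of 15 early progenitor genes 1 rose without the 3, where Hoxa9 rose by 6.61 ± 0.87 (limma adjusted p = 0.0278). Its mean there was 10.50 in CA10 thymus, 8.93 in NHD13 thymus and 3.89 in wild type.

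CA10 and NHD13 thymus were also compared directly; this comparison shares its arrays with those above. 0 of 9 members were called by limma over all arrays, at 0.216% of genes called, and 4 of 9 had an unadjusted p under 0.05. Cd2 was 2.15 ± 0.53 higher in CA10 thymus (limma adjusted p = 0.173), with no overlap, as for 5.83% of all genes. The difference was 3.07 ± 1.08 (0.361) for Cd8b1, 2.61 ± 1.00 (0.409) for Cd8a and 1.57 ± 0.60 (0.406) for Cd4. Without the 3 thymuses 4 members were called, all higher in CA10, at 3.44% of genes called and 1.71% called higher. These were Cd2 at 2.51 ± 0.43 (0.0153), Cd4 at 1.92 ± 0.31 (0.0115), Cd8a at 3.03 ± 0.62 (0.0275) and Cd8b1 at 3.41 ± 0.82 (0.0479). Cd3g differed by -0.12 ± 0.25 (0.828) and Cd3e by -0.18 ± 0.25 (0.726) there, and over all arrays by -0.58 ± 0.61 (0.778) and -0.37 ± 0.45 (0.816).

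**Figure D3:**
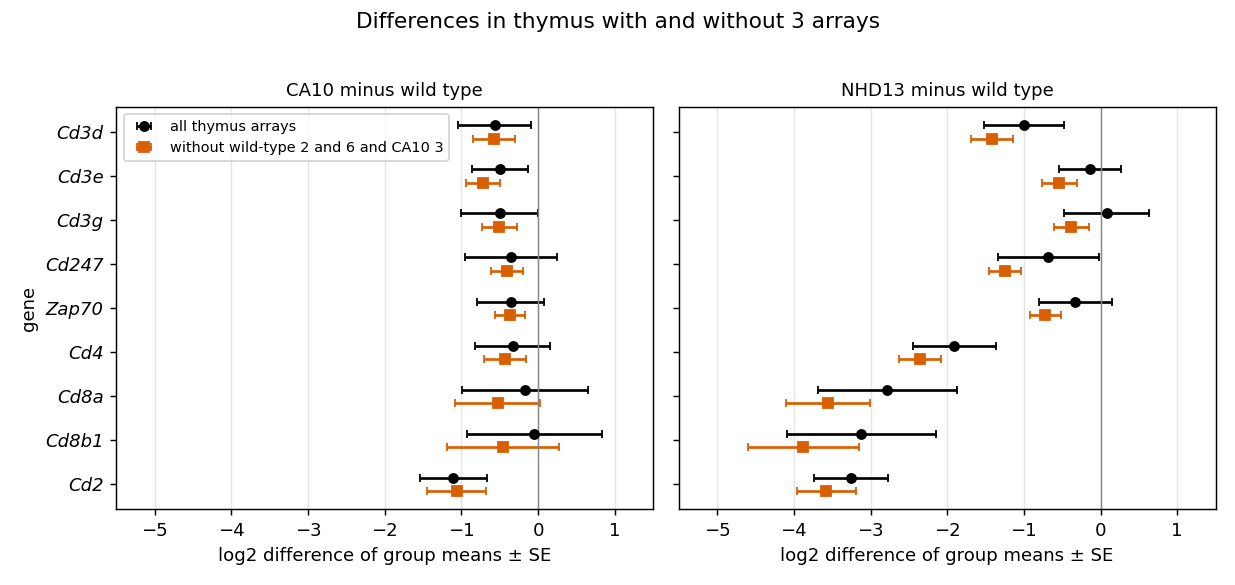
Log2 difference from wild-type thymus with its standard error for 9 genes, in CA10 (left) and NHD13 thymus (right), over all thymus arrays (circles) and without wild-type 2 and 6 and CA10 3 (squares); values are from the fit of all probe sets and Zap70 is its most variable one. In NHD13 thymus Cd2, Cd8b1, Cd8a and Cd4 lie between -3.87 and -1.91, while Cd3g and Cd3e lie between -0.54 and 0.08.

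The effect of NHD13 differed between thymus and whole marrow for Cd4, with all 6 wild-type marrows as the marrow reference. In marrow alone the NHD13 difference of Cd4 was 0.47 against wild-type marrows 1 to 3 and 0.06 against marrows 4 to 6. The contrast between tissues was not refitted with either set. For Cd4 the NHD13 difference in thymus minus that in marrow was -2.17 ± 0.51 (limma on all 57 arrays, adjusted p = 0.0332), at 0.372% of genes called. Cd2 stood at -2.74 ± 0.68 (0.0512), Cd8a at -2.64 ± 0.79 (0.171) and Cd8b1 at -2.78 ± 0.95 (0.275). Without the 3 thymuses these 4 members were called, at 1.55% of genes: Cd4 at -2.62 ± 0.36 (6.67e-06), Cd8a at -3.42 ± 0.53 (5.25e-05), Cd8b1 at -3.53 ± 0.79 (0.00796) and Cd2 at -3.06 ± 0.66 (0.00579). The effect of CA10 in thymus minus that in healthy spleen or in whole marrow was called for 0 of 9 members, at 0% and 0% of genes, or 0% and 0.0196% without the 3 thymuses; the lowest adjusted p over all arrays was 0.913.

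In leukemic spleens of NHD13 mice nearly the whole receptor complex was low. 8 of 9 members fell against wild-type spleen, at a background of 31.4% of genes called and 12.3% called lower, and the arrays of 8 members did not overlap, as for 18.5% of all genes in that direction. Of the 17 member probe sets, 15 fell, at 12.6% of probe sets called lower. The median difference of the members was -2.64, against 0.04 over all genes. The wild-type side held only 2 arrays.

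Cd3d read 9.81 and 10.38 in wild-type spleen, and 5.10, 6.82 and 8.21 (lowest, median and highest of 6) in NHD13 leukemic spleen. It fell by 3.32 ± 0.62, 9.99-fold (limma adjusted p = 0.000896). Cd3g read 8.83 and 9.36 against 5.30, 5.65 and 7.13 and fell by 3.20 ± 0.61 (0.000965). For both, NHD13 array 6 was the highest of the leukemic arrays and stayed under wild type. Cd3e read 8.73 and 8.33 against 6.33, 6.77 and 7.81 and fell by 1.54 ± 0.34 (0.00269).

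Cd247 read 7.76 and 8.56 in wild-type spleen and 4.60, 5.58 and 7.58 in NHD13 leukemic spleen, and fell by 2.40 ± 0.72 (limma adjusted p = 0.0173). Its highest leukemic array was array 3, the array that was lowest for Cd3d, Cd8a, Cd8b1 and Cd2. Zap70 at its most variable probe set read 6.37 and 6.52 against 4.76, 4.96 and 5.44 and fell by 1.40 ± 0.27 in the fit of all probe sets (0.00101). Its brightest probe set differed by -0.37 ± 0.19 (0.145).

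Cd4 read 8.72 and 9.14 in wild-type spleen and 6.15, 6.22 and 6.64 in NHD13 leukemic spleen, a tight set of 6 arrays. It fell by 2.64 ± 0.26, 6.23-fold (limma adjusted p = 4.94e-06), the smallest adjusted p of the members. Cd8a read 7.12 and 7.75 against 5.18, 5.87 and 6.29 and fell by 1.66 ± 0.38 (0.0034). Cd8b1 read 7.30 and 8.19 against 3.94, 4.61 and 6.69 and fell by 2.87 ± 0.72 (0.00633), its leukemic median lying in the dim part of the range. Cd2 read 8.58 and 9.55 against 4.47, 5.32 and 6.53 and fell by 3.66 ± 0.69, 12.7-fold (0.000896). No leukemic array reached the wild-type arrays in any of these 4 genes. The count of members called was 5 without wild-type spleen 2, when 2148 of the 15310 genes were called, and 6 without wild-type spleen 1, when 2368 were; over all arrays 4801 were.

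**Figure D4:**
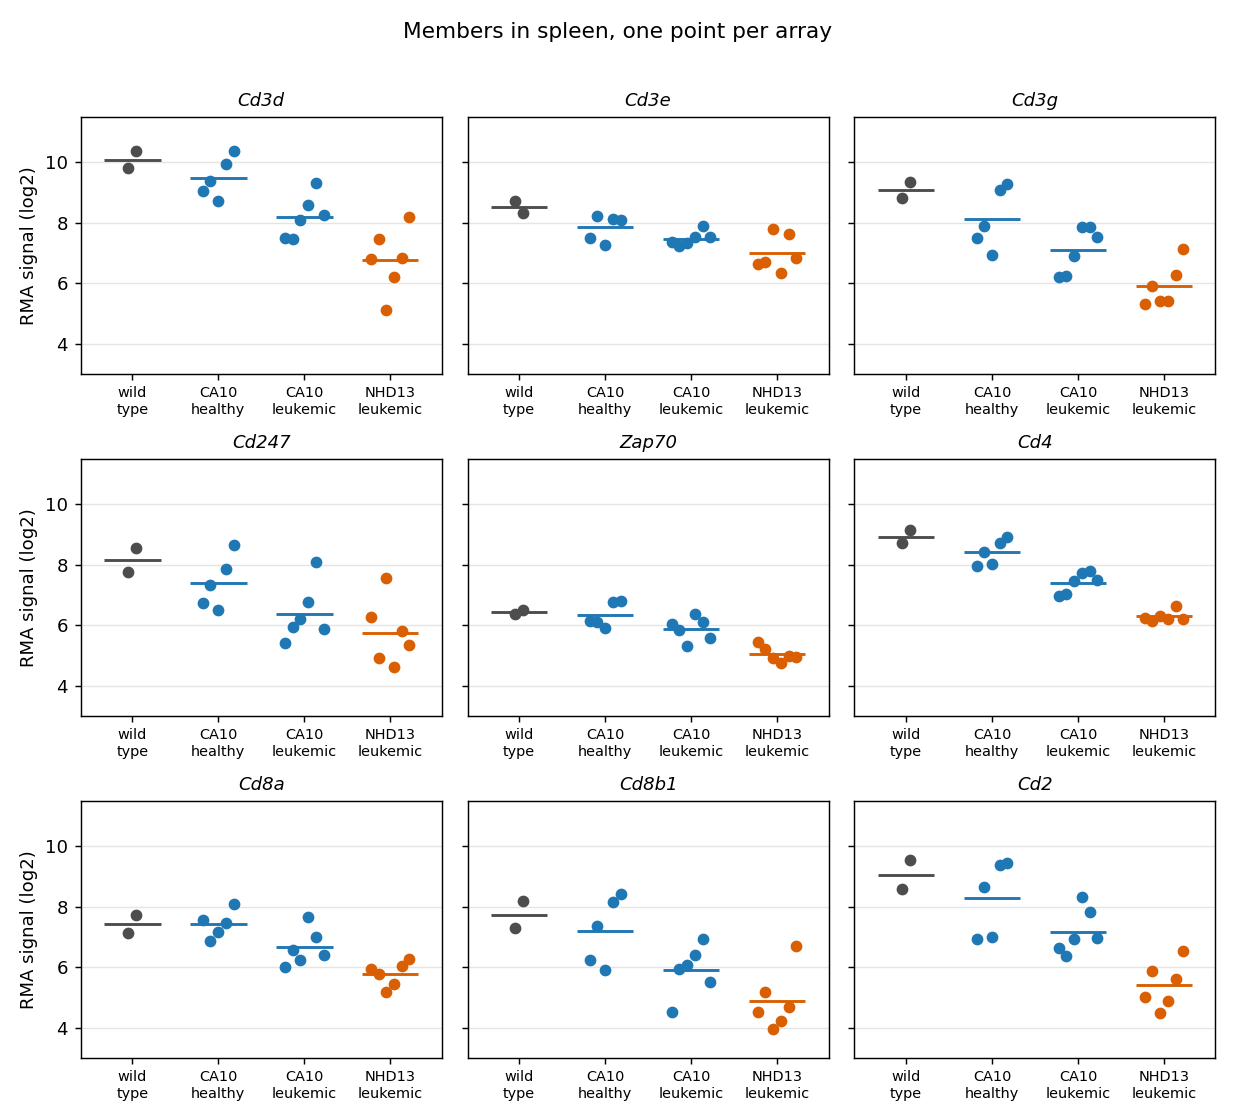
RMA signal (log2) of 9 genes in wild-type spleen (n = 2), CA10 healthy spleen (n = 5), CA10 leukemic spleen (n = 6) and NHD13 leukemic spleen (n = 6); each point is 1 array, lines are group means, and Zap70 is shown by its most variable probe set. The NHD13 leukemic mean is the lowest in every panel, and Cd4 in NHD13 leukemic spleen is packed between 6.15 and 6.64.

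In leukemic spleens of CA10 mice, Cd4 was the 1 member of 9 called against wild-type spleen, at 8.05% of genes called and 2.42% called lower. Cd4 read 6.97, 7.48 and 7.79 against 8.72 and 9.14 and fell by 1.52 ± 0.26, 2.87-fold (limma adjusted p = 0.00637). The median difference of the members was -1.77, against 0.03 over all genes, and 6 did not overlap with wild type, as for 11.6% of all genes in that direction. Cd3g read 6.22, 7.22 and 7.86 and differed by -2.0 ± 0.61 (0.050014, just above the threshold). The difference was -1.05 ± 0.34 (0.0629) for Cd3e, -1.89 ± 0.62 (0.0677) for Cd3d and -1.89 ± 0.69 (0.0945) for Cd2. It was -1.85 ± 0.72 (0.119) for Cd8b1 and -1.77 ± 0.72 (0.135) for Cd247. Cd8a overlapped with wild type and differed by -0.78 ± 0.38 (0.215). The count of members rested on the model and on single arrays, as did that of all genes. With wild-type spleen 1 left out it was 0, when 1 of the 15310 genes was called, and with wild-type spleen 2 left out 0, when 0 were. It was 2 without CA10 leukemic spleen 4 (1350 genes called) and 3 without CA10 leukemic spleen 5 (1148 genes), against 1232 genes over all arrays. In a model of only these groups it was 5, at 14.3% of genes, and in a model of all 57 arrays 4, at 4.51%.

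Against healthy CA10 spleen, Cd4 was again the 1 member called, at 6.01% of genes called and 1.83% called lower. It read 7.96, 8.43, 8.03, 8.72 and 8.92 in healthy CA10 spleen and fell by 1.00 ± 0.19 in leukemic CA10 spleen (limma adjusted p = 0.00967), with no overlap, as for 1.12% of all genes. The call was lost in the model of all 57 arrays (0.064, at 3% of genes called) and with the replicate number as a block (0.105, with 0 genes called). Healthy CA10 spleens 1 and 3 were the lowest of their group in Cd3d, Cd3e, Cd3g, Cd247, Cd4, Cd8b1 and Cd2, and also in the B cell sum, at 14.17 and 13.49 against 15.45 to 16.01. Their myeloid granule sums were the highest of the group, at 16.55 and 16.59 against 12.93 to 15.02. Healthy spleen 1 also had a 3' minus 5' difference of the Gapdh control probe sets, a sign of RNA quality, of 2.09, against 0.14 to 0.58 in the other 4. The part of these cell types and of RNA quality in the count was not tested. Without these arrays 4 members fell, at 10.5% of genes called: Cd4 at -1.28 ± 0.19, Cd2 at -1.99 ± 0.46, Cd3g at -1.65 ± 0.47 and Cd8b1 at -2.08 ± 0.55. The arrays left out were the lowest of their group in these 4 genes. The larger differences follow from that choice, and no conclusion is drawn from this count. Healthy CA10 against wild-type spleen gave 0 of 9 members called by limma and 0 at an unadjusted p under 0.05, at 0% of genes called. The interval at 95% confidence of that difference ran from -1.07 to 0.03 for Cd4 and from -2.25 to 0.70 for Cd2.

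The leukemic spleens of the transgenes differed. 5 members were higher in CA10 than in NHD13 leukemic spleen, at 24.7% of genes called and 11.7% called higher. Cd4 was higher by 1.12 ± 0.18 (limma adjusted p = 0.000355), Cd2 by 1.78 ± 0.49 (0.0136) and Cd3d by 1.43 ± 0.44 (0.0246). Cd8a was higher by 0.88 ± 0.27 (0.0244) and Cd3g by 1.20 ± 0.43 (0.0491). Of the members Cd4 alone did not overlap between the groups, as for 5.72% of all genes in that direction. Its CA10 arrays began at 6.97 and its NHD13 arrays ended at 6.64. Zap70 at its most variable probe set was 0.84 ± 0.19 higher in CA10 (0.0035), while its brightest probe set differed by -0.00 ± 0.13 (0.995). Cd3e, Cd247 and Cd8b1 were not called, at 0.49 ± 0.24, 0.63 ± 0.51 and 1.02 ± 0.51. The count was 2 without CA10 leukemic spleen 4, without CA10 leukemic spleen 5 or without NHD13 leukemic spleen 4, when 3032, 3436 and 2994 of the 15310 genes were called, against 3782 over all arrays. This comparison shares its leukemic arrays with those above.

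Wild-type marrows labelled C57B6 differed from the other wild-type marrows in 3 members, as given below, and the labels do not give the strain of the spleens. Subtracting that marrow difference from the NHD13 side left 6 members called in NHD13 leukemic against wild-type spleen, at 7.86% of genes; Cd3d at -1.90 (limma adjusted p = 0.109) and Cd8a at -1.67 (0.26) were no longer called. For CA10 against NHD13 leukemic spleen it left 2, at 5.34% of genes, Cd2 at 3.59 (0.000147) and Cd3g at 2.33 (0.0143), and Cd3d moved from 1.43 to 0.02.

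Genes around the receptor fell with it in NHD13 leukemic spleen. Against wild type, 12 of 28 signalling genes were lower and 1 higher, 10 of 16 costimulation and adhesion genes were lower and 2 higher, and 14 of 21 mature T cell genes were lower and 0 higher. Sit1, an adaptor that dampens receptor signals, fell by 2.98 ± 0.47 (limma adjusted p = 0.000276), the Src kinase Fyn fell by 1.74 ± 0.32 (0.000743) and Rasgrp1 fell by 3.18 ± 0.67 (0.0019). The adhesion receptor Slamf6 fell by 3.64 ± 0.51 (0.000122) and Cd5, which tunes receptor signals, fell by 2.96 ± 0.64 (0.00226). Gimap3, a GTPase of lymphocyte survival, fell by 4.58 ± 0.68 (0.000191) and Ccr7 fell by 3.96 ± 0.64 (0.000315). Among T lineage factors Lef1 fell by 2.15 ± 0.28 (5.73e-05) and Bcl11b fell by 2.80 ± 0.59 (0.0019), 6 of 16 being lower and 2 higher.

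In CA10 leukemic spleen 1 of 28 signalling genes fell (Sit1 fell by 1.66 ± 0.47, limma adjusted p = 0.0394) and 2 of 21 mature genes (Foxo1 and S1pr1). Of all genes tested 2.42% were called lower there, and the signalling count lies near that share. Among costimulation and adhesion genes Slamf6 fell by 1.92 ± 0.51 (0.0317) and Cd48 rose by 1.14 ± 0.24 (0.0129). Lef1, Bcl11b, Ets1 and Ikzf3 were the 4 of 16 T lineage factors that fell. Compared directly, 10 of 21 mature genes, 8 of 16 costimulation and adhesion genes and 6 of 28 signalling genes were higher in CA10 than in NHD13 leukemic spleen, and 1 signalling gene was lower. Ccr7 was higher by 2.62 ± 0.45 (0.000588) and Fyn by 1.32 ± 0.22 (0.000553).

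Other lymphoid and myeloid genes moved beside the members. In NHD13 leukemic spleen 16 of 16 B cell genes fell, with a median of -5.20, and in CA10 leukemic spleen 9 of 16. Their sum ran from 15.61 to 15.88 in wild type, 12.31 to 14.78 in CA10 leukemic and 10.16 to 13.01 in NHD13 leukemic spleen. Cd79a, a signalling chain of the B cell receptor, was at 4.28 to 5.48 in the NHD13 leukemic spleens. 7 of 16 myeloid granule genes and 9 of 18 mitotic genes rose in NHD13 leukemic spleen, and 2 of 16 and 1 of 18 in CA10 leukemic spleen. Of all genes tested 31.4% were called in NHD13 leukemic spleen, 12.3% as lower, and 8.05% in CA10 leukemic spleen, 2.42% as lower. The CA10 mitotic count did not stand out from these shares. Of the natural killer and cytotoxic genes, 5 of 14 were lower and 1 higher in NHD13 leukemic spleen; natural killer cells also use Cd247, Zap70 and Cd2. The sum of the members ran from 11.76 to 12.22 in wild type, 10.05 to 11.22 in CA10 leukemic and 9.23 to 10.18 in NHD13 leukemic spleen. The part of these cell types in the fall of the members was not tested.

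**Figure D5:**
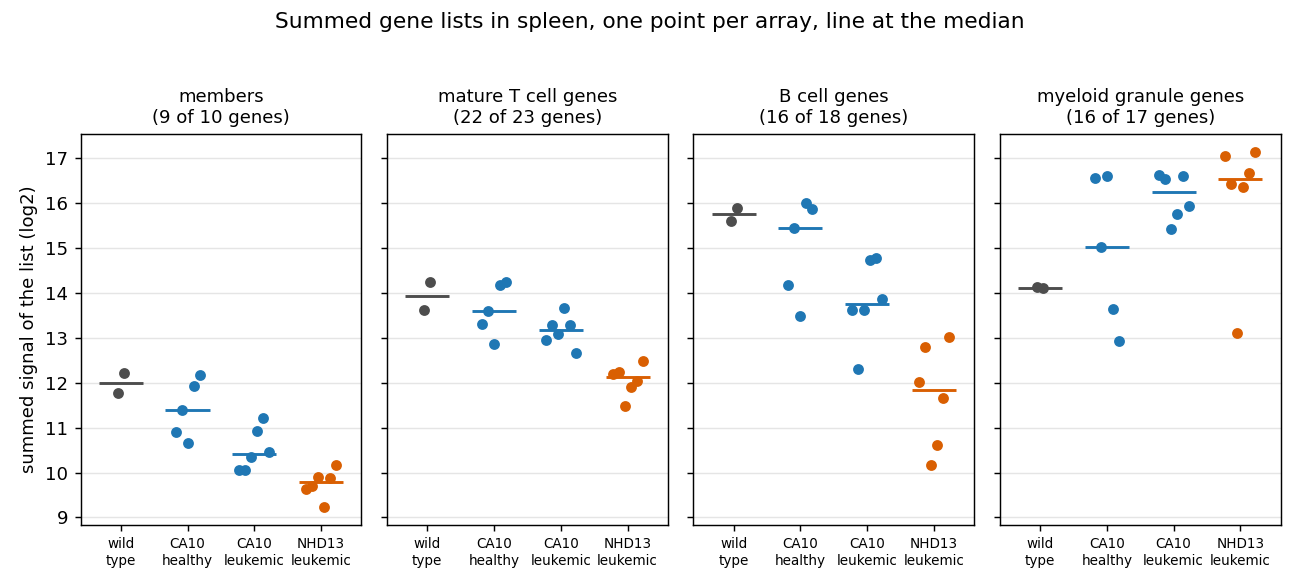
Summed signal (log2) of 4 gene lists in spleen by group; each point is 1 array and lines are medians. The members run from 11.76 to 12.22 in wild type and 9.23 to 10.18 in NHD13 leukemic spleen, and myeloid granule genes stand at 15.42 or above in all leukemic arrays but NHD13 leukemic spleen 3, at 13.10.

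In marrow of the transgenic mice 0 of 9 members were called over all arrays. In lineage-negative marrow 0 of 9 were called by limma for CA10 (0% of genes; 0 members at an unadjusted p under 0.05) and 0 of 9 for NHD13 (0.0588% of genes; 1 at an unadjusted p under 0.05), also with the replicate number as a block. Cd3g there read 4.60, 4.43 and 5.10 in wild type and 4.11, 3.91 and 3.94 in NHD13, all in the dim part of the range (difference -0.72 ± 0.32, adjusted p = 0.946). NHD13 array 3 of this tissue had the Gapdh 3' minus 5' difference of 2.95. Without the third arrays the Cd3g difference was -0.50 ± 0.27 (limma adjusted p = 0.74). In whole marrow 0 of 9 were called for CA10 (0% of genes; 2 at an unadjusted p under 0.05) and 0 of 9 for NHD13 (1.18% of genes; 3 at an unadjusted p under 0.05). Cd247 in NHD13 whole marrow read 6.25, 6.75 and 5.28 and differed by 0.62 ± 0.25 (0.26). These counts rested on the wild-type arrays used: against wild-type marrows 1 to 3 alone 7 members were called for CA10, at 55.9% of genes, and 2 for NHD13, at 1.98%. Against marrows 4 to 6 alone they were 0 for CA10, at 0.00653%, and 4 for NHD13, at 54.2% of genes. The upper quartile of an array's signals was 7.12 to 7.15 in wild-type marrows 4 to 6 and 7.14 to 7.15 in CA10 marrows. It was 7.48 to 7.59 in wild-type marrows 1 to 3 and 7.47 to 7.53 in NHD13 marrows. Against marrows 1 to 3, the NHD13 calls were Cd2 at -0.92 and Cd3d at -0.86. The part of this split between arrays in the counts was not tested.

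Against the other wild-type marrows, the C57B6 marrows differed in 3 members, at 19.2% of genes called, 5.2% lower and 14% higher. Cd3d read 8.44, 7.90 and 8.52 in C57B6 marrow and 9.17, 9.58 and 10.34 in the other 6, and fell by 1.42 ± 0.24 (limma adjusted p = 0.000784). Cd3g was higher by 1.13 ± 0.25 (0.00533) and Cd2 by 1.81 ± 0.29 (0.000566). Cd2 read 7.70, 7.83 and 8.08 in C57B6 marrow and 4.89, 6.26 and 6.62 in the other 6. Cd3d and Cd3g thus differed in opposite directions between wild-type marrows, although the Cd3g call was lost in the model of all 57 arrays (0.109).

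The genes with the most similar pattern over the 14 group means were taken for Cd3e, Cd4 and Cd8b1. For Cd3e these were H2-T3 (Pearson r = 0.98), Gata3, Gprasp2, Dzip1 and Fbxo32. For Cd4 they were Cd6 (Pearson r = 0.97), Sit1, Tdrp, Ski and Scg5, and for Cd8b1 Cd6 (Pearson r = 0.98), Tdrp, Cd5, Skap1 and Lrig1. The points share arrays, tissue and processing, so these values describe likeness only.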

How the data were processed

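The deposited values are log2 signals that the authors computed by RMA, as the submitters' processing notes state, for 44943 probe sets on 57 arrays. No aligner or build applies to them. An annotation made by GEO gave 34842 probe sets 1 gene, 931 several and 9106 none, beside 64 controls; only those with 1 gene were used. RMA compresses differences between dim signals, and the number of arrays limits precision.

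Each gene took its brightest probe set and was tested if this exceeded the array's 40th percentile on 3 or more arrays. limma 3.58.1 in R 4.3.3 (lmFit, eBayes) was fitted per tissue to group means, over all genes and over 28025 probe sets, and was tested on simulated data. The members, gene lists and naming rule (up to 4 called genes a list with the smallest p, every member, and the 5 most alike genes) were chosen with earlier results of these data known. Of 25 receptor chain genes 2 could be tested, and 0 were called by limma over all arrays.

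The labels do not say what replicate numbers mark. Deviations of same-numbered arrays correlated in lineage-negative marrow (0.20 to 0.70 for CA10, 0.21 to 0.74 for NHD13). These arrays were treated as paired only in an alternative with the replicate number as a block. The differences reported for them are from the fit without it. Alternatives were other filters, probe set rules, normalization, models and controls, and each array left out.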

Additional observations from a re-analysis of the deposited data

Results flagged for a closer look

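Arrays far from the rest of their group were sought for the 9 members in groups of 4 to 10 arrays. Of 54 sets tested, 9 had such an array, and chance gives about 1 in 20. In 7 of these it was wild-type thymus 2: Cd3d at 10.13, Cd3g at 9.54, Cd247 at 7.83, Cd4 at 8.74, Cd8a at 7.54 and Cd8b1 at 8.11 were below the other 6 wild-type thymuses, and the brightest Zap70 probe set, at 8.54, was above them. The others were Cd4 at 6.64 in NHD13 leukemic spleen 5, above its group, and Cd4 at 6.67 in wild-type whole marrow 3, below its group.

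Cd4 was also the member whose NHD13 effect differed between thymus and whole marrow over all arrays, by -2.17 (limma, adjusted p = 0.0332).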

How the results depend on the processing

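Counts are of members called by limma out of 9. Percentages in brackets, where given, are the share of all genes tested that was called in that setting. A count given without a share, here or above, cannot be read against all genes. For NHD13 against wild-type thymus (1 as reported) the count was 4 with all 57 arrays in the model and 0 with the replicate number as a block (0%). In that block fit Cd2 stood at -3.02 (limma adjusted p = 0.594), and the numbers do not pair these arrays. The count was 6 without the 3 thymuses (10.7%) and 6 also without NHD13 thymus 3 (14.8%). With single arrays left out it was 1 to 4, being 4 (Cd2, Cd4, Cd8a and Cd8b1) without wild-type thymus 2, when 317 genes were called. For CA10 against NHD13 thymus (0) it was 4 with all 57 arrays, 4 without the 3 thymuses (3.44%) and 5 also without NHD13 thymus 3 (5.36%). For CA10 leukemic against wild-type spleen (1) it was 2 with a filter at the 60th percentile, 4 with quantile normalization, 5 with only the groups compared and 4 with all 57 arrays. It was 3 with the 3' to 5' difference of Gapdh as covariate (12.8%), 6 with the replicate block (3.57%) and 2 with the most variable probe set. With single arrays left out it was 0 to 3. For NHD13 leukemic against wild-type spleen (8) it was 5 to 8 with single arrays left out. For CA10 leukemic against healthy CA10 spleen (1) it was 0 with all 57 arrays and 0 with the replicate block (0%). Without healthy spleens 1 and 3, the lowest of their group in the members called, it was 4 (10.5%). With single arrays left out it was 1 to 2, being 2 without CA10 leukemic spleen 4, when 969 genes were called. For CA10 against NHD13 leukemic spleen (5) it was 3 with the replicate block (20.9%), 2 with the C57B6 difference subtracted (5.34%) and 2 to 6 with single arrays left out. For CA10 against wild-type whole marrow (0) it was 6 with the replicate block (56.6%) and 7 with wild-type marrows 1 to 3 only (55.9%). For NHD13 against wild-type whole marrow (0) it was 1 with quantile normalization, 2 with wild-type marrows 1 to 3 (1.98%) and 4 with marrows 4 to 6 (54.2%). It was 3 with C57B6 marrows as the reference (16.1%). With single arrays left out it was 0 to 1, being 1 (Cd247) without NHD13 marrow 3, when 189 genes were called. For the NHD13 effect in thymus minus whole marrow (1) it was 4 without the 3 thymuses (1.55%). The cause of these changes was not tested.

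A sign changed beside a call in 4 of 2331 member values. Zap70 in CA10 against NHD13 leukemic spleen was 0.46 with the mean of its probe sets and 0.84 with the most variable one, against -0.00. In NHD13 whole marrow against the C57B6 reference, Cd3d was 0.92 and Cd3g was -1.13. Settings chosen after seeing the data were those leaving out the healthy spleens, NHD13 thymus 3 or the third lineage-negative arrays, tissue differences without the 3 thymuses, and the most variable probe set. Signal over background limits Cd3g and Cd8b1 in marrow.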
